A study of Caenorhabditis elegans with 4 samples.

Results

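The regions described here are the binding sites of the zinc-finger protein LIN-13 on the arms of chromosome V in Caenorhabditis elegans embryos. A peak of the deposited list was counted as an arm peak when its midpoint lay before position 5897000 or at or after position 16550000 of V (WormBase WS180), the borders between the arms and the centre as set by recombination rate. By this rule 681 of the 5502 peaks in the list were arm peaks, 319 on the left arm and 362 on the right, and 490 further peaks lay in the centre of V. The study used ChIP-seq, in which protein-bound DNA is pulled down with an antibody and sequenced. All libraries came from hermaphrodite strain OP51, genotype unc-119 (ed3) III with the transgene wgIs73, which carries lin-13 fused to TY1, EGFP and FLAG together with unc-119(+) and was brought in by bombardment. Embryos were grown at 20 °C and fixed with 2% formaldehyde, and the tagged protein was recovered with a goat serum against GFP. The labels name 2 ChIP and 2 input libraries from replicates 1 and 2, and the authors merged both replicates into 1 list before deposition. Replicate error could therefore not be estimated, the read depth per library is unknown, and no test of a difference between samples was possible. The tag marks the transgenic protein, so binding of untagged LIN-13 was not measured.

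LIN-13 belongs to the synthetic multivulva class B proteins, which keep developmental genes silent alongside the worm retinoblastoma protein. It is known as a partner of HPL-2, a worm relative of heterochromatin protein HP1. The arms of worm autosomes recombine often, hold many repeats and are marked by methylated lysine 9 of histone H3, while the centres hold most of the broadly expressed genes. The arms of V in particular are known for large clusters of chemoreceptor genes. Genes and sequences at the peaks were not analysed here, since no WS180 genome or gene annotation was used.

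The right arm of V was the densest of the 3 regions in LIN-13 peaks, and the left arm lay close to the centre. The left arm held 54.1 peaks per Mb (exact Poisson 95% interval 48.3 to 60.4), the right arm 83.6 (75.2 to 92.7) and the centre 46.0 (42.0 to 50.3). The ratio of right to left arm was 1.55 (exact interval 1.33 to 1.80). Both arms together came to 66.6 peaks per Mb, 1.45 times the centre (1.29 to 1.63). They held 58.2% of the peaks of V on 48.97% of its span. For the left arm alone the ratio to the centre was 1.18 (1.02 to 1.36), and for the right arm 1.82 (1.58 to 2.09). These intervals cover counting error and treat peaks as independent. Since peaks came in groups, they are too narrow: over 100-kb windows the variance of the peak number was 4.29 times its mean on the arms and 1.60 times in the centre.

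Counted in base pairs the arms and the centre differed far less, because arm peaks were short. Peaks covered 1.93% of the arms and 1.74% of the centre, a ratio of 1.11. On the left arm the covered share, 1.71%, was slightly below that of the centre (ratio 0.984). On the right arm it was 2.22% (ratio 1.28). The direction for the left arm thus depended on whether peaks or base pairs were counted.

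Density did not fall off evenly from the ends. On the left arm the outermost 1 Mb held 73 peaks and the next 63, followed by 46 and 35, and the Mb after these held 65. On the right arm the outermost Mb held 97 peaks, the next 115 and the next 104, and the Mb after that only 35. Of the whole Mb counted, the one 3 to 4 Mb from the end thus held the fewest peaks on both arms. The incomplete Mb at the inner border of the right arm had a like density, 33.5 per Mb. The emptiest bins of 0.5 Mb held 9 peaks, at 3 to 3.5 Mb from the left end, and 7, at 3.5 to 4 Mb from the right end. On the left arm the bins on either side, at 2.5 to 3 and 3.5 to 4 Mb, held 24 and 26. Peaks within them were uneven. The 100-kb window starting at 2.6 Mb held 19 peaks, and those starting at 2.5, 2.9 and 3.9 Mb held 0. The fullest bin of the left arm was the outermost, with 41 peaks, and that of the right arm lay at 2 to 2.5 Mb from the end, with 67.

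**Figure D1:**
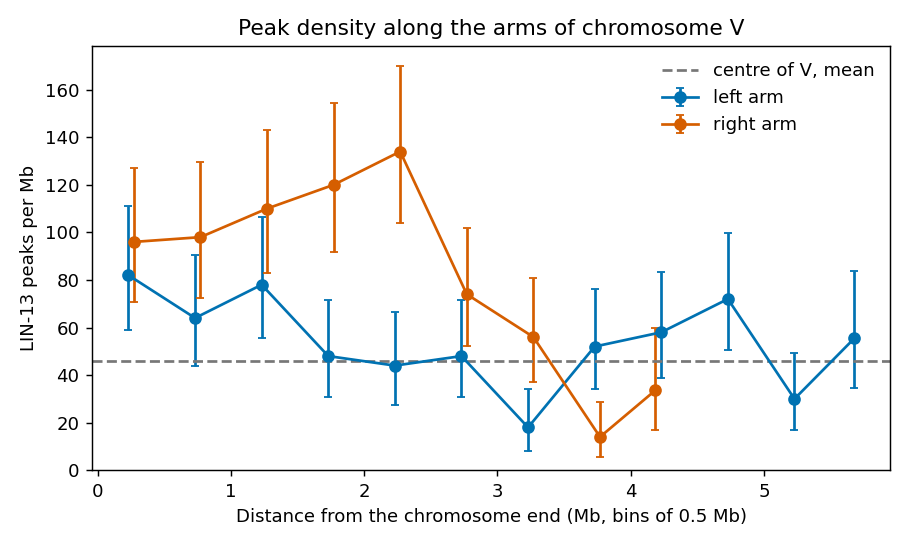
LIN-13 peaks per Mb (y axis) in bins of 0.5 Mb by distance from the chromosome end (x axis, Mb), for the left and right arm of V, with exact Poisson 95% intervals as bars and the mean of the centre, 46.0 per Mb, as a dashed line. The right arm stays between 96 and 134 per Mb out to 2.5 Mb and drops to 14 per Mb at 3.5 to 4 Mb, while the left arm lies between 18 and 82 per Mb.

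In windows of 100 kb, arm counts ran from 0 to 20 with a median of 6, and centre counts from 0 to 15 with a median of 4. On the arms 8 of 100 windows were empty and 27 held 10 peaks or more. In the centre 4 of 106 windows were empty and 4 held 10 or more. Full and empty windows were both more common on the arms, a difference described here and not tested. The widest stretch of V without a peak was on the left arm, 321746 bp between the peak ending at 2278892 and that starting at 2600639. The widest on the right arm was 232759 bp, between the peak at 16965669 to 16966035 and that at 17198795.

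The stretch from 18 to 20 Mb held most of the right arm's peaks. It was singled out with earlier results of these data known, so its density is given as a description. It held 228 peaks, which is 63.0% of the right arm's peaks on 46.2% of its length and 33.5% of all arm peaks (exact binomial interval 29.9 to 37.2). Its density was 114 peaks per Mb (99.7 to 130), against 57.6 (48.2 to 68.2) on the rest of the right arm. The rest of the right arm had 1.06 times the density of the whole left arm (interval 0.863 to 1.31). No dense part was taken out of the left arm, so this ratio does not compare the arms on like terms. The rest of the right arm was itself uneven. From its border at 16.55 Mb to 17.5 Mb it held only 20 peaks, or 21.1 per Mb, below the centre. From 17.5 to 18 Mb the density was 82.0 per Mb and from 20 Mb to the last peak 83.1 per Mb, so the dense part began before 18 Mb and went on past 20 Mb at a lower level.

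Within the stretch the 20 windows of 100 kb held 2 to 20 peaks, with a median of 12, and none was empty. The windows starting at 18.5 and at 19.6 Mb were fullest, with 20 peaks each. The windows starting at 18.2 and 19.4 Mb were thinnest, with 2 each. Peaks there were as wide as on the rest of the right arm, with medians of 203 bp (183 to 240) and 202 bp (174 to 248). Those narrower than 100 bp made up 21.1% (15.9 to 26.9) against 17.9% (11.8 to 25.5). Of the stretch's peaks 38.6% (32.2 to 45.2) were among the 2751 with the smallest q-values of the whole list, against 29.1% (21.6 to 37.6) on the rest of the right arm. In widths and in these shares the intervals of the stretch and its surroundings overlapped.

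**Figure D2:**
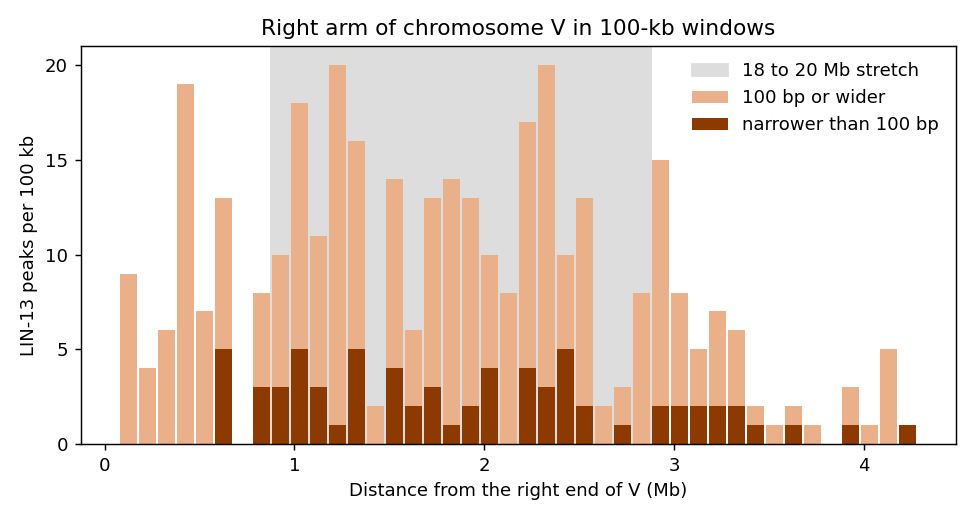
LIN-13 peaks per 100 kb (y axis) in the full windows of the right arm of V by distance from its end (x axis, Mb). The light part of each bar counts peaks of 100 bp or wider, the dark part those narrower than 100 bp, and grey marks the 18 to 20 Mb stretch, whose windows range from 2 to 20 peaks.

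Arm peaks were narrower than those of the centre, and those of the right arm were the narrowest. A width is the end minus the start plus 1 base. The median was 264 bp on the left arm (order-statistic 95% interval 238 to 291), 202.5 bp on the right arm (185 to 225) and 323.5 bp in the centre (308 to 349), and none of the 3 intervals overlapped. Peaks narrower than 100 bp made up 11.9% on the left arm (8.57 to 16.0), 19.9% on the right arm (15.9 to 24.4) and 5.51% in the centre (3.66 to 7.92). Peaks of 1 kb or wider numbered 7 on the left arm, 4 on the right and 9 in the centre.

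The excess of peaks on the arms lay among the short ones. Peaks narrower than 200 bp came to 26.6 per Mb on the arms and 6.66 in the centre, a ratio of 3.99 (3.06 to 5.26). Peaks of 200 bp or wider came to 40.0 and 39.3 per Mb, a ratio of 1.02 (0.885 to 1.17). This held for each arm. Among the wider peaks the left arm had 0.949 times the density of the centre (0.802 to 1.12) and the right arm 1.11 times (0.930 to 1.32). Among the narrower peaks the ratios were 2.52 (1.84 to 3.47) and 6.00 (4.52 to 8.02).

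**Figure D3:**
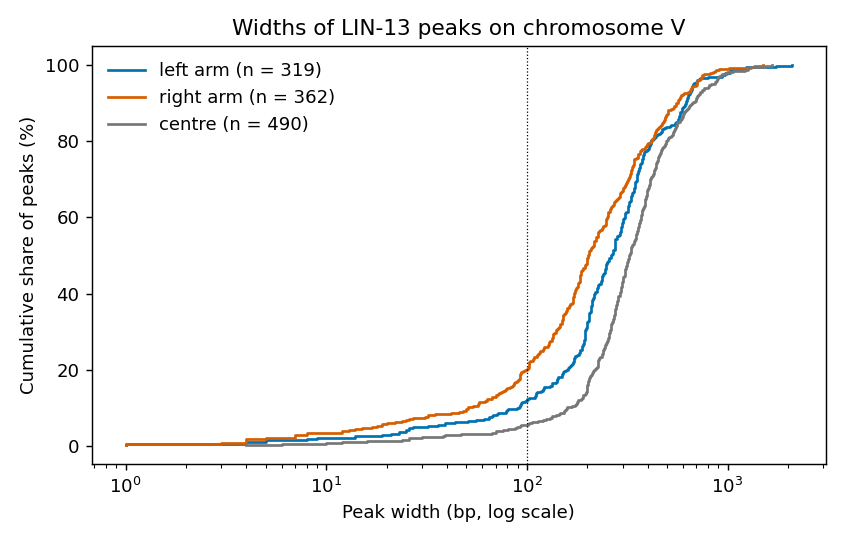
Cumulative share of peaks (y axis, %) by peak width (x axis, bp, log scale) for the left arm (n = 319), right arm (n = 362) and centre (n = 490) of V, with a dotted line at 100 bp. At 100 bp the right arm curve is highest, with 19.9% of its peaks narrower than that, against 11.9% on the left arm and 5.51% in the centre, and the curves meet among the widest peaks.

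Arm peaks also had larger q-values, so their evidence was weaker. The q-value is the authors' and comes from their peak caller. Of the arm peaks 36.3% (32.7 to 40.0) were among the 2751 peaks with the smallest q-values of the whole list, against 50.4% (45.9 to 54.9) in the centre. The share was 37.6% on the left arm and 35.1% on the right. Among the peaks of V with a q-value below 1e-20, 12 of 34 lay on the arms (35.3%, 19.7 to 53.5), and among those between 0.001 and 0.01, 333 of 531 did (62.7%, 58.4 to 66.8). For both arms together, density exceeded that of the centre in the classes above 1e-05 and not below. In the 2751 best-ranked peaks the ratio of arms to centre was 1.04 (0.870 to 1.25), and in the rest it was 1.86 (1.59 to 2.19). Among those best-ranked peaks the left arm had 0.878 times the density of the centre (0.700 to 1.10) and the right arm 1.27 times (1.01 to 1.57).

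The q-values could be read back as read numbers. Multiplied by the position of the peak in the list and divided by 26301, a q-value equals the tail of a binomial distribution with probability 0.5 for whole read numbers. A match was found for all 5502 peaks at a tolerance of 1e-11 in the natural logarithm, taken relative to the logarithm where that exceeds 1. A single pair of numbers followed for each of the 681 arm peaks. The larger number is taken as ChIP reads and the smaller as scaled input reads. The scaling of the input is not stated. These numbers are inferred from the q-values. Those of the input could be 1 read too low and those of the ChIP 1 read too high.

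On this reading arm peaks held fewer reads, and the ratio of ChIP to input was no lower. The median arm peak had 51 ChIP and 18 input reads, and the median centre peak 75 and 29. The median ratio was 2.62 on the left arm (2.52 to 2.75), 3.00 on the right arm (2.92 to 3.16) and 2.60 in the centre (2.47 to 2.67). The q-value limit admits a peak of few reads only if its ratio is high, so these medians are tied to the read numbers. At like read numbers the right arm had a higher median ratio than the centre in all 5 classes of total reads, with overlapping intervals in each. It was 3.50 against 3.33 under 50 reads and 2.76 against 2.67 at 50 to 74 reads. At 75 to 99 reads it was 2.60 (2.46 to 2.81) against 2.40 (2.26 to 2.62), and from 100 to below 150 reads 2.59 (2.31 to 2.94) against 2.30 (2.14 to 2.53). At 150 reads or more it was 2.72 against 2.53. The left arm lay above the centre in the lowest and highest class, at 3.71 and 2.55, and below it in the others, at 2.57, 2.29 and 2.26. The median widths of peaks with 50 to 74 reads were 203 bp on the left arm, 191 bp on the right and 203 bp in the centre. Under 50 reads they were 79.5, 88 and 90 bp. In each higher class both arms had wider medians than the centre. In the same order these were 300, 311 and 275 bp at 75 to 99 reads. From 100 to below 150 reads they were 396.5, 433 and 385.5 bp, and at 150 or more 656, 699.5 and 612.5 bp. These differences were not tested.

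The number of peaks in each class of reads differed more. Peaks with under 50 reads in total came to 17.6 per Mb on the arms and 4.60 in the centre, a ratio of 3.83 (2.78 to 5.36). In the class of 75 to 99 reads the ratio was 1.23 (0.934 to 1.62). For peaks with 100 reads or more the order turned: 18.6 per Mb on the arms against 25.2 in the centre, a ratio of 0.739 (0.610 to 0.893). The ratio to the centre in that class was 0.681 (0.536 to 0.859) for the left arm and 0.817 (0.636 to 1.04) for the right. All 110 arm peaks narrower than 100 bp had under 50 reads, and 105 of them ranked outside the 2751 best. The arms held 180 peaks with under 50 reads and 434 outside the 2751 best, so both classes also took in wider peaks. Width, q-value and implied reads thus marked overlapping sets of peaks, and they are not independent measures.

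**Figure D4:**
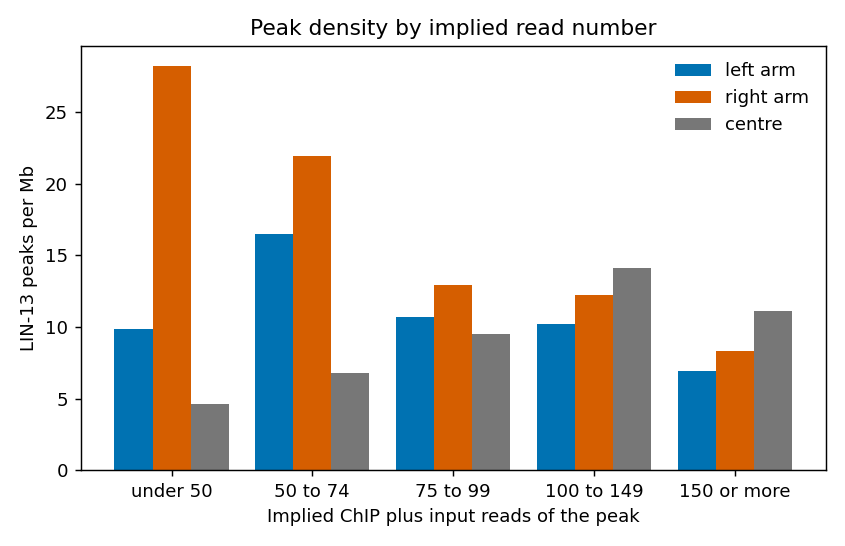
LIN-13 peaks per Mb (y axis) on the left arm, right arm and centre of V for 5 classes of implied ChIP plus input reads (x axis). Under 50 reads the right arm has 28.2 per Mb and the centre 4.60, and at 150 reads or more the centre is highest, with 11.1 per Mb against 6.95 on the left and 8.32 on the right arm.

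High ratios were found on both arms. The ratio was 5 or higher for 25 left arm peaks (7.84%), 31 right arm peaks (8.56%) and 34 centre peaks (6.94%). A ratio under 2 was rarer on the arms, at 7.05% against 17.8% in the centre. Peaks of such a low ratio pass the q-value limit only with many reads, and peaks with many reads were fewer on the arms. Whether this accounts for the difference was not tested.

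**Figure D5:**
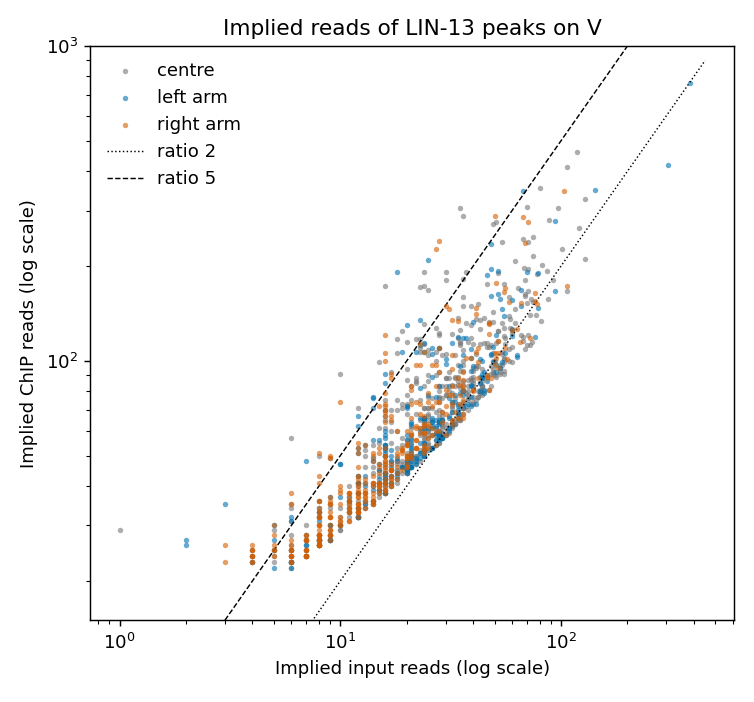
Implied ChIP reads (y axis, log scale) against implied input reads (x axis, log scale), 1 point per peak of V, coloured by region, with lines at ratios of 2 and 5. Right arm points gather at the lower left, where the median peak has 46.5 ChIP and 16 input reads, while centre points reach further up and to the right.

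Peaks on the arms lay closer together than in the centre. The median gap from the end of a peak to the start of the next was 6466.5 bp on the left arm, 4671.5 bp on the right arm, 3310.5 bp in the 18 to 20 Mb stretch and 11036 bp in the centre. A neighbour with its midpoint within 2 kb was found for 40.1% of left arm peaks (34.7 to 45.7), 181 of the 362 right arm peaks (44.7 to 55.3%) and 26.9% of centre peaks (23.1 to 31.1). In the stretch the share was 56.1% (49.4 to 62.7), and on the rest of the right arm 39.6% (31.2 to 48.4). A denser region has closer neighbours by its density alone, and that part was not separated here. On the arms the stronger peaks had neighbours at least as often as the weaker: 52.2% (45.8 to 58.6) of those among the 2751 best-ranked and 41.5% (36.8 to 46.3) of the others. In the centre the shares were 27.1% and 26.7%.

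Chains of peaks, each within 2 kb of the next, were mostly pairs. The left arm had 53 chains, the right arm 72 and the centre 57, of which 7, 6 and 2 held 4 peaks or more. As for neighbours, the part due to density alone was not separated. The longest, in the 18 to 20 Mb stretch from 19883090 to 19890479, held 8 peaks in 7390 bp. In order along the chromosome their widths were 145, 74, 170, 116, 194, 525, 399 and 121 bp. Only the 525-bp and 399-bp peaks, with q-values of 9.09e-09 and 5.30e-07, ranked among the 2751 best. The 525-bp peak had 73 ChIP reads and 16 input reads, so the chain consisted of a moderate site with weaker ones around it.

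The next longest chain, from 18536708 to 18542651, held 7 peaks in 5944 bp, and a single peak, from 18541166 to 18541797 with a q-value of 5.72e-09, was among the best-ranked. The longest chain of the left arm held 5 peaks from 151464 to 156756. Their q-values ran from 0.00915 at the outer peak to 5.34e-11 and 3.49e-10 at the inner pair. In this chain 4 of the 5 peaks were among the best-ranked, against 2 of 8 and 1 of 7 in both longer chains on the right.

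By q-value the strongest sites of the arms fell short of those in the centre. The centre held the best peak of V, from 10341768 to 10342705, with a q-value of 4.65e-52. Of the 50 peaks of V with the smallest q-values 21 lay on the arms, which make up 48.97% of its span, 12 of them on the left. By implied ratio the order varied. The 5 best peaks had medians of 5.18 on the left arm, 5.78 on the right and 4.425 in the centre. For the 10 best they were 4.48, 4.84 and 5.46, and for the 50 best 3.82, 4.07 and 4.56. The best arm peak lay on the left arm from 1151117 to 1151842, with a width of 726 bp, a q-value of 4.90e-44 and rank 33 in the list. It had 347 ChIP reads and 67 input reads. Its nearest neighbour, 967 bp away between midpoints, was weak, with a q-value of 0.00466.

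The second peak of the left arm, from 1868606 to 1868978, was narrower than the best and had a higher ratio. It had 192 ChIP reads against 18 input reads in 373 bp, a ratio of 10.7, the highest on the arms among peaks with at least 100 reads. Its q-value was 1.26e-35. A further strong peak, from 1871554 to 1872144 with 195 against 48 reads and a q-value of 1.78e-20, lay close by. The third, from 5504989 to 5505396, was of similar width, with 209 against 25 reads and a q-value of 4.54e-35. It stood alone, its nearest neighbour 27284 bp away. It lay within 1 Mb of the inner border of the arm, as did the fourth and the fifth, from 5049277 to 5049854 (q-value 1.14e-28) and from 5283999 to 5285751 (q-value 3.36e-27).

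The fifth peak was of another kind. It was 1753 bp wide and had 760 ChIP reads, the most of any arm peak named here, yet 383 input reads, so that its ratio was only 1.98. The widest arm peak, from 1574764 to 1576863 with 2100 bp, had 349 against 143 reads and a ratio of 2.44. The peak from 1473740 to 1474980, the next widest of the left arm after both, had a ratio of 2.97. A small q-value at these wide sites thus came with many reads and a moderate ratio, and at the short sites with a high ratio.

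On the right arm the 3 strongest peaks all lay in the 18 to 20 Mb stretch. The first, from 18967398 to 18967986, had 241 ChIP reads against 28 input reads, a ratio of 8.61 and a q-value of 6.81e-41. The second, from 19522407 to 19523064, had 289 against 50 reads, a ratio of 5.78 and a q-value of 1.46e-39, and closed a chain of 5 peaks. The third, from 19642977 to 19643406, had 227 against 27 reads, a ratio of 8.41 and a q-value of 3.56e-38. Each was under 700 bp wide and had another peak within 2 kb, at midpoint distances of 891.5, 1306 and 887 bp. The stretch was therefore not made of weak peaks alone.

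The next pair of right arm peaks was wide and lay outside the stretch. The peak from 20478788 to 20480287 was 1500 bp wide, with 287 against 67 reads, and had a q-value of 2.35e-31. The peak from 17951124 to 17952472 was 1349 bp wide, with 345 against 103 reads, and had a q-value of 1.86e-29. The next widest was the peak from 20419164 to 20420477, with 1314 bp and a ratio of 3.87. It directly followed the peak from 20418543 to 20418883, which was 341 bp wide and at 121 against 16 reads had a ratio of 7.56, exceeded among right arm peaks of at least 100 reads only by the first and the third named above. A wide site of moderate ratio and a short site of high ratio thus lay side by side, their midpoints 1107.5 bp apart.

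At the other extreme, several arm peaks were a few bases wide. Those at 220747 and 1093761 on the left arm and at 19998643 and 20244617 on the right arm spanned 1 bp, with 23 or 24 ChIP reads against 4 to 7 input reads. Their q-values lay between 7.46e-04 and 0.00831. The last peak of V, from 20877971 to 20877973, was of this kind, with 24 against 6 reads, and its end served as the end of the chromosome. The first peak of V, from 8160 to 8366, had 47 against 15 reads and a q-value of 2.78e-04.

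The peaks next to the borders had q-values between 2.79e-05 and 0.00179. The last peak inside the left arm, from 5867443 to 5867994, had a q-value of 3.83e-04 and a ratio of 2.13, and the first in the centre, from 5917742 to 5917969, had 2.69e-04 and 2.71. On the right the last centre peak, from 16543527 to 16543875, had a q-value of 0.00179 and a ratio of 2.17, and the first arm peak, from 16552989 to 16553204, had 2.79e-05 and 3.64.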

How the data were processed

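Per the file headers, the deposited list is GFF3 on WormBase WS180, its peaks were called with PeakSeq, and the q-value of each peak is the authors'. Its version, the aligner and the filters are not stated. The list pools both replicates, so no sample was compared with another. V was taken to end with its last peak. Peaks per Mb, widths, gaps and shares were computed with Python 3.11.15, numpy 2.4.6, scipy 1.17.1 and pandas 2.3.3. Intervals at 95% are exact Poisson, Clopper-Pearson or order-statistic intervals and cover counting error only, and ratio intervals come from the exact binomial one. No p-value was computed. Implied reads were found by matching q-values to binomial tails, and the code was tested on simulated data. Named peaks are, per arm, the 5 smallest q-values, the 3 widest, the 3 highest ratios at 100 or more reads and the longest chain, with the outermost, border and gap peaks. The narrowest peaks, the chain of 7 and the neighbours of strong peaks were named after their values were seen. The members, classes and the 18 to 20 Mb stretch were chosen with earlier results of these data known.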

Additional observations from a re-analysis of the deposited data

How the results depend on the processing

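Of 48 recomputed values, 27 stayed within the counting interval of the main value and 21 moved outside it. Both density ratios among them, left to right arm and arms to centre, kept their side of 1 in these settings. With the 2751 best-ranked peaks, the interval of arms to centre included 1 (0.870 to 1.25). Outside the 48 settings, the ratio of arms to centre was 0.739 (0.610 to 0.893) for peaks with 100 implied reads or more. At q-values below 1e-10 it was 0.822 (0.568 to 1.18). The ratio of left arm to centre, also not among the 48, changed sides: it was 1.18 as deposited, 0.984 in covered base pairs and 0.878 with the 2751 best-ranked peaks. The left-to-right density ratio, 0.647 as deposited, was 0.768 in covered base pairs and lay between 0.601 and 0.711 under the other alternatives. The arm-to-centre ratio, 1.45, depended most on the choice of peaks: it was 1.24 at q-values up to 0.001, 1.04 with the 2751 best-ranked peaks, 1.28 without peaks narrower than 100 bp and 1.11 in covered base pairs. Moving the borders by 500 kb, taking the outer 25% as arms or merging peaks under 500 bp apart left it between 1.34 and 1.54. The share of arm peaks in the 18 to 20 Mb stretch stayed between 31.5% and 35.6%. The median width, 231 bp, became 328 bp at q-values up to 0.001, 354 bp with the best-ranked peaks, 273 bp without narrow peaks and 255.5 bp after merging. The share with a neighbour within 2 kb, 45.4%, became 35.6%, 32.8%, 40.8% and 32.1% under the same 4 settings, and 22.8% or 70.04% with a distance of 1 or 5 kb. These falls follow in part from the smaller number of peaks kept. The share among the best-ranked, 36.3%, was 42.4% without narrow peaks and 45.96% when ranked within V. The median ratio, 2.83, was 3.19 at q-values up to 0.001, 3.35 with the best-ranked peaks, 2.68 without narrow peaks and 2.68 with 1 input read added. No paired analysis was possible because the single list pools the replicates, and for the same reason no replicate could be left out. Depth is unknown, and LIN-13 may also bind regions that were not called.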

Other observations

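The implied input reads favoured multiples of 4, on the arms and also in the centre of V. They were a multiple of 4 for 263 of 681 arm peaks, or 38.6% (Clopper-Pearson interval 34.9 to 42.4), and for 32.4% of centre peaks (28.3 to 36.8). For ChIP reads the shares were 24.7% (21.5 to 28.1) and 24.9% (21.1 to 29.0). An implied input of 16 reads was found for 54 arm peaks, against 21 with 15 and 22 with 17, and 8 reads for 42, against 20 with 7 and 21 with 9. In the whole list, too, 16 reads were found for 185 peaks, against 119 with 15 and 123 with 17. What the multiples come from was not tested.

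A few arm peaks had almost no implied input. Peaks with 3 input reads or fewer numbered 5, and the strongest of them, from 5047405 to 5047507 on the left arm, had 35 ChIP reads against 3 and a q-value of 5.96e-07. It lay beside the strong peak from 5049277 to 5049854. At the other end, the left arm peak from 264952 to 265978 had 420 ChIP reads against 305 input reads, the lowest ratio of any arm peak at 1.38, with a q-value of 1.18e-04. These peaks were chosen after their values were seen.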
